A study of Mus musculus with 20 samples.

Results

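The genes described here make, sense, move and store cholesterol, or make the fatty acids it is stored with. They are 34 mouse genes chosen by name, and all 34 were found among the 49315 gene identifiers of the deposited tables. By role they comprise 7 enzymes of the mevalonate stage, 10 of the squalene and sterol ring stage, 5 genes of sterol sensing, 3 of transport, storage and uptake, 5 of the LXR, oxysterol and efflux group and 4 of fatty acid synthesis and desaturation. The values come from RNA sequencing of eosinophils, granulocytes of allergic and parasite immunity, which the study sorted from mouse lung by flow cytometry. The tested libraries came from Balb/c lungs 7 days after transplantation into C57BL/6 recipients, with titles that say no CSB (n = 5), and CSB stands in the labels for costimulatory blockade, which deprives T cells of accessory signals for activation. The other libraries came from resting lungs of untreated C57BL/6 mice (n = 5). The sorted cells of the grafts are labelled as of recipient origin and of C57BL/6 strain. The growth protocol that all samples share speaks of transplantation with costimulatory blockade, while the titles of these 5 libraries say no CSB and their treatment label names no blockade. The groups here follow the titles, and that conflict bears on every day 7 value. No knockout or transgene is labelled in either group. Each library pooled the lungs of 3 to 5 mice, so the spread below is between pools, and nothing in the labels says whether pools came from separate experiments.

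Cholesterol is built from acetyl units through mevalonate, isoprenoids, squalene and a series of sterols, and the same route supplies farnesyl groups for proteins. When sterol in the endoplasmic reticulum runs low, the escort protein Scap carries the membrane-bound SREBP factors (encoded by Srebf1 and Srebf2) to the Golgi for cleavage, and the freed factors switch on genes of synthesis. When sterol is plentiful, Insig proteins hold Scap back, and oxysterols activate the nuclear receptors LXR alpha and LXR beta (Nr1h3 and Nr1h2), which switch on export pumps such as Abca1 and Abcg1. In macrophages and other leukocytes the balance of these arms sets how much free and esterified cholesterol a cell holds.

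Total counts were 15695074 to 26683784 in the day 7 libraries and 6666577 to 12883144 in the resting libraries. Levels are given in CPM, the counts of a gene relative to all counts of its library, with the TMM correction for library composition, and fold changes are log2 differences, day 7 minus resting, with their standard error. A gene is said to have risen or fallen where edgeR's quasi-likelihood test gave an adjusted p below 0.05 over the 16500 genes tested. The eosinophil markers Siglecf and Ccr3 were present in every library. Siglecf had 134 to 300 CPM at day 7 and 105 to 199 CPM in resting lung. Ccr3 had 171 to 811 CPM at day 7 and 159 to 472 CPM in resting lung. Marker sums are scaled to library totals alone, unless stated otherwise. The 10 eosinophil markers together summed to 775 to 2959 CPM at day 7 and 1792 to 3214 CPM in resting lung. Of the 10, Siglecf rose, a call that 12 of 20 alternative fits ended, and 6 fell. Means at day 7 and in resting lung were 6.89 and 93.1 CPM for Epx, 81.5 and 463 CPM for Prg2, and 4.18 and 29.3 CPM for Prg3. They were 46.3 and 190 CPM for Ear1, 66.9 and 262 CPM for Ear2, and 23.9 and 82.5 CPM for Ear6. Markers of other cells were also present: the 14 monocyte and interstitial macrophage markers summed to 11730 to 19900 CPM at day 7 and 6671 to 11020 CPM in resting lung, with 11 higher and 0 lower. Most of that sum was Lyz2, with 8123 to 15089 CPM at day 7 and 4614 to 8033 CPM in resting lung. C1qb, with the largest rise of the list, had 339 to 1415 CPM at day 7 and 14.7 to 42.2 CPM in resting lung. The 13 epithelial markers summed to 313.5 to 784.6 CPM at day 7 and 3801 to 7024 CPM in resting lung, with 11 lower, and the 10 endothelial markers to 74.5 to 175 CPM at day 7 and 2805 to 4025 CPM in resting lung, with 10 lower. Over all genes tested, 23.3% rose and 23.4% fell. No marker of these lists was at 0 in any library. In such bulk libraries fewer cells of a type and less RNA per cell cannot be told apart. The groups stand in separate tables and differ in depth, so a batch and the group cannot be told apart.

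All 34 genes passed the filter on low counts. At day 7, 7 rose and 8 fell, against 23.3% of all genes tested that rose and 23.4% that fell. Together 15 genes (44.1%) passed the test, close to the 46.7% of all genes, so the number of sterol genes that moved is no more than the background. Changes of at least 2-fold were found in 5 of them (14.7%), against 25.3% of all genes. Their median log2 fold change was 0.07 and the median size of the change 0.35, against 0.05 and 0.47 for all genes. The ranges of the groups were apart for 10 of the 34 (5 higher and 5 lower), against 35.1% of all genes. With library totals alone as the scale, the median over all genes shifted by -0.19 (log2), and then 4 of the 34 rose and 13 fell. What the genes show is therefore in which members moved and in which direction.

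**Figure D1:**
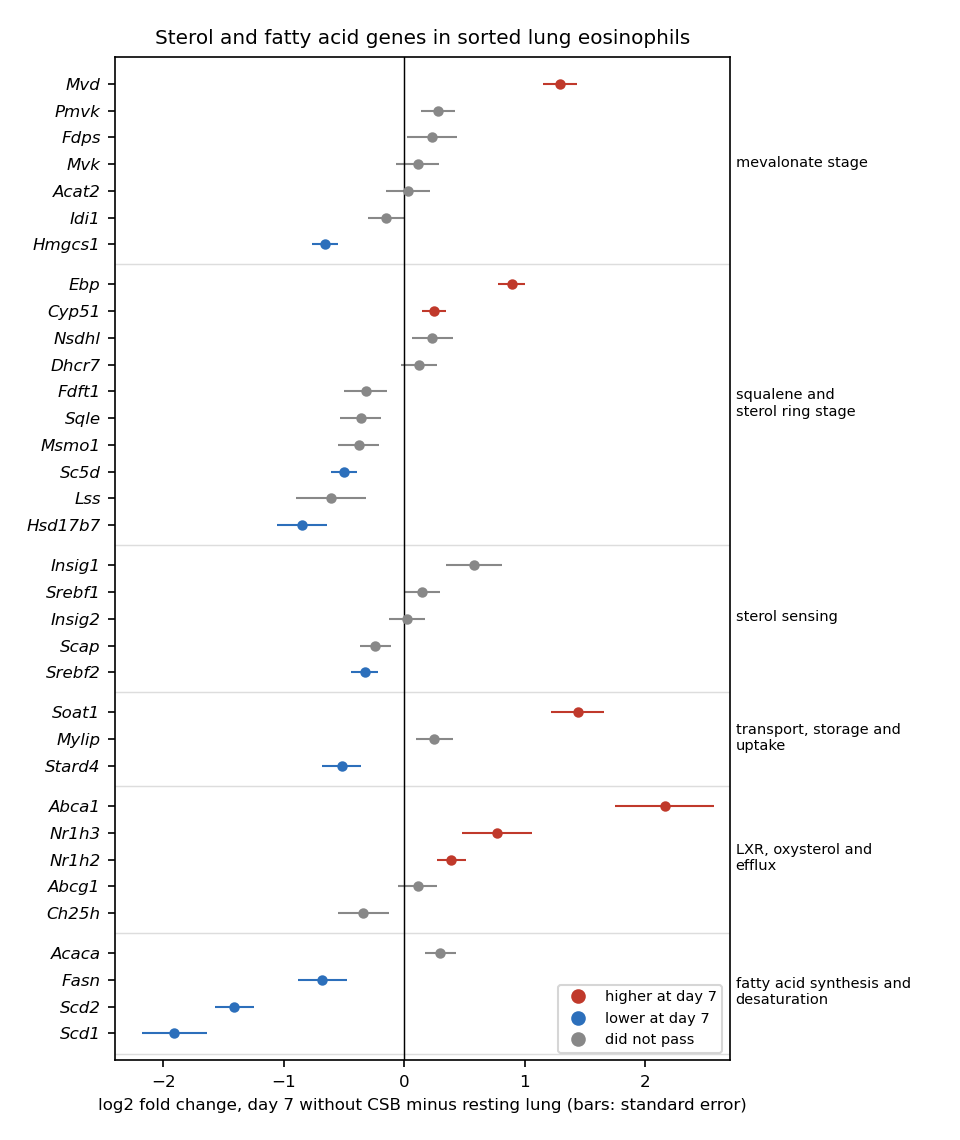
Log2 fold change (x axis, day 7 without CSB minus resting lung) of the 34 genes grouped by role, with bars for the standard error from edgeR's fit (n = 5 pools a group). Red points rose, blue points fell and grey points did not pass the test. Each stage of synthesis holds genes on both sides of 0, from Mvd at 1.29 to Hsd17b7 at -0.85, and the longest bar is that of Abca1 at 2.16 ± 0.41.

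The promoters of the synthesis enzymes that passed the test are shown first, since this route is the classic target of the SREBP factors. RefSeq promoter windows (GRCm38.p6, 250 bases before to 50 after a start site) were matched by symbol for 27 of the 34 genes. Below are the 150 bases before the start, 5′ to 3′ on the gene's strand, for the enzymes that rose and then for those that fell. Capitals mark the sterol element core TCACNCCAC and the NF-Y box CCAAT, read on either strand, so that ATTGG is the same box in the other orientation. The windows are Mvd at chr8:122443423-122443572 (minus strand), Ebp at chrX:8193513-8193662 (minus), Cyp51 at chr5:4104698-4104847 (minus), Hmgcs1 at chr13:119690201-119690350 (plus), Hsd17b7 at chr1:169969206-169969355 (minus) and Sc5d at chr9:42264301-42264450 (minus).
Mvd: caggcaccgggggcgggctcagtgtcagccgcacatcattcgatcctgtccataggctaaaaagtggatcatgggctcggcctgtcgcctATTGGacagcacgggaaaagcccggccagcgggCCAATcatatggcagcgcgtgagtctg
Ebp: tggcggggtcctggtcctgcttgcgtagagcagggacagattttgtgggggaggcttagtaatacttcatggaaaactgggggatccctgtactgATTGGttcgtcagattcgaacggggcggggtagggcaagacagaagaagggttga
Cyp51: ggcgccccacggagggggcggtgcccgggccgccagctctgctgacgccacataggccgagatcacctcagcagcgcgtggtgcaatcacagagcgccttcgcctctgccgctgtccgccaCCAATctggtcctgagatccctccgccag
Hmgcs1: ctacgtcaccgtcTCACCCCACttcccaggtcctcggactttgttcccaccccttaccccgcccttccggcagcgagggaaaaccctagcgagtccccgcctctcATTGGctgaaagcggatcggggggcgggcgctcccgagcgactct
Hsd17b7: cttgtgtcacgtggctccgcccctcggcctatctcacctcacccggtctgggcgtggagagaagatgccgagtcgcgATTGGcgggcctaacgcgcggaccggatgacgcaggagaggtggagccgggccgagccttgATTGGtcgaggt
Sc5d: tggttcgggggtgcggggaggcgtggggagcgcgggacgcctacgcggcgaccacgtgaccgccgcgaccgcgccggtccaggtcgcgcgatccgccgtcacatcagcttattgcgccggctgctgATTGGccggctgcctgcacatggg

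A core of the sterol element stood in 1 of these 6 windows, that of Hmgcs1, 137 bases before its start, while each of the 6 held at least 1 NF-Y box. Over the 27 genes and their whole windows, TCACNCCAC was found in 1 (3.70%), against 1.44% of the 27025 genes of the table. The shorter CACNCCAC, which the longer motif contains, was found in 3 (11.1%; Acat2, Hmgcs1 and Insig1), against 7.12%. The NF-Y box was found in 20 (74.1%), against 41.1% of all genes, and the GC box GGGCGG in 21 (77.8%), against 38.2%. Both strands were searched. By call, the NF-Y box stood in 4 of the 7 genes that rose, 5 of the 5 with a window that fell and 11 of the 15 with a window that did not pass. The NF-Y box was therefore found in genes of both directions. These are matches of letters, not binding sites.

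The mevalonate stage held the sharpest opposite pair. Mvd (chr8:122433601-122443422, 11 exonic blocks), the decarboxylase that yields isopentenyl diphosphate, had 70.4, 59.8, 47.9, 50.02 and 43.3 CPM in day 7 libraries 1 to 5, against 20.7, 23.8, 20.3, 21.9 and 24.2 CPM in resting libraries 1 to 5. Every day 7 value lay above every resting value, and the log2 fold change was 1.29 ± 0.14 (SE; edgeR adjusted p = 5.05e-06). Hmgcs1 (chr13:119690379-119708260), the cytosolic HMG-CoA synthase at the head of the route, had 52.8, 44.5, 54.8, 62.7 and 48.5 CPM at day 7, against 90.9, 91.3, 73.5, 76.9 and 82.0 CPM in resting lung. It fell without overlap, by 0.66 ± 0.11 on the log2 scale (adjusted p = 0.000347). Both calls held in all 20 alternative fits, with log2 fold changes of 1.09 to 1.40 for Mvd and -0.84 to -0.54 for Hmgcs1.

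The other 5 enzymes of the stage did not pass. Acat2, the thiolase that joins acetyl-CoA units, averaged 10.6 ± 1.97 CPM at day 7 and 10.3 ± 1.72 CPM in resting lung (SD, n = 5 each), and the sign of its log2 fold change of 0.03 turned under other scalings. Mvk, which phosphorylates mevalonate, averaged 7.67 ± 0.83 CPM at day 7 and 7.10 ± 1.42 CPM in resting lung, and its 0.11 became -0.08 with library totals alone. Pmvk, the next kinase, averaged 39.5 ± 7.72 CPM at day 7 and 32.6 ± 3.36 CPM in resting lung (log2 fold change 0.28 ± 0.14, adjusted p = 0.122). The kinases and the thiolase thus stayed within the spread of the pools. Idi1, the isomerase of isopentenyl diphosphate, averaged 11.8 ± 1.53 CPM at day 7 and 13.2 ± 1.62 CPM in resting lung. Fdps, which joins the isoprene units to farnesyl diphosphate, averaged 16.8 ± 3.77 CPM at day 7 and 14.4 ± 3.6 CPM in resting lung. On the same strand, 26.7% of its exonic length is shared with Gm43738, so their reads may not be told apart. Gm43738 itself had at most 2 counts in any library.

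Of the 10 enzymes that turn farnesyl diphosphate into sterols, 2 rose and 2 fell, against 23.3% and 23.4% of all genes. Ebp (chrX:8185329-8193512), which shifts a ring double bond late in the route, had 62.9, 62.3, 62.8, 52.9 and 46.3 CPM at day 7, against 28.9, 29.6, 34.1, 32.9 and 29.6 CPM in resting lung. The groups did not overlap, and the log2 fold change was 0.89 ± 0.11 (adjusted p = 2.59e-05). Sc5d (chr9:42251595-42264256), the desaturase that acts directly after Ebp, went the other way, with 45.3, 41.8, 46.0, 54.6 and 45.6 CPM at day 7, against 66.3, 74.2, 69.5, 56.0 and 63.4 CPM in resting lung. It fell by 0.50 ± 0.11 (adjusted p = 0.00189), and its highest day 7 library lay just under its lowest resting library. Hsd17b7 (chr1:169949535-169969241), the ketoreductase of sterol demethylation, had 5.36, 5.82, 5.92, 8.96 and 4.69 CPM at day 7, against 12.7, 7.95, 12.5, 12.7 and 9.71 CPM in resting lung. It fell by 0.85 ± 0.21 (adjusted p = 0.00427) although day 7 library 4 lay above resting library 2. The calls of these 3 genes held in all 20 alternative fits.

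Cyp51 (chr5:4081145-4104746), the lanosterol demethylase, had 60.4, 67.2, 63.4, 59.8 and 52.9 CPM at day 7, against 51.9, 50.4, 49.2, 48.4 and 55.1 CPM in resting lung. It passed narrowly (0.25 ± 0.10 on the log2 scale, adjusted p = 0.0448), and 13 of 20 alternative fits ended the call, with an adjusted p of up to 0.640. The steps before it had lower means at day 7 that did not pass. Fdft1, squalene synthase, averaged 13.8 ± 2.59 CPM at day 7 and 17.3 ± 3.48 CPM in resting lung (adjusted p = 0.152), and 18.3% of its exonic length is shared with Ctsb on the opposite strand, a gene that rose by 2.13, so their reads may not be told apart. Sqle, squalene epoxidase, averaged 16.7 ± 2.57 CPM at day 7 and 21.6 ± 4.76 CPM in resting lung (adjusted p = 0.0883). Lss, which cyclises squalene epoxide to lanosterol, averaged 7.06 ± 1.99 CPM at day 7 and 10.9 ± 4.85 CPM in resting lung (adjusted p = 0.0966). With library totals alone, all 3 passed as lower.

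Msmo1, the oxidase that begins removal of the paired methyl groups of the ring, averaged 36.3 ± 8.38 CPM at day 7 and 47.3 ± 6.32 CPM in resting lung, a log2 fold change of -0.38 ± 0.17 (adjusted p = 0.0796). Nsdhl, the next dehydrogenase of that step, averaged 11.5 ± 1.98 CPM at day 7 and 9.81 ± 1.56 CPM in resting lung. Dhcr7, a reductase at the end of the route, averaged 13.5 ± 2.41 CPM at day 7 and 12.5 ± 0.74 CPM in resting lung, and its 0.12 became -0.07 with library totals alone. The enzymes of methyl removal, Msmo1, Nsdhl and Hsd17b7, thus differed in direction or call among themselves.

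Summed over the 17 enzymes of both stages, the level was 482.8, 479.1, 483.4, 488.3 and 382.4 CPM in the day 7 libraries, against 485.9, 460.7, 437.4, 477.2 and 444.2 CPM in the resting libraries. The means were 463.2 ± 45.3 and 461.1 ± 20.8 CPM (SD, n = 5 each), a difference well inside the spread. The 7 mevalonate enzymes summed to 193.3 ± 19.7 CPM at day 7 and 182.7 ± 9.70 CPM in resting lung. The 10 enzymes of the squalene and ring stage summed to 269.9 ± 28.2 CPM at day 7 and 278.4 ± 15.1 CPM in resting lung. On the TMM scale, Mvd and Ebp thus rose and Hmgcs1, Sc5d and Hsd17b7 fell, while the summed level stayed within the spread of the pools. The sums were not taken with library totals alone. On that scale the median over all genes shifted by -0.19 (log2), Fdft1, Sqle, Lss and Msmo1 passed as lower, and Cyp51 did not pass. Day 7 library 5 gave the lowest value of its group for 18 of the 34 genes.

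**Figure D2:**
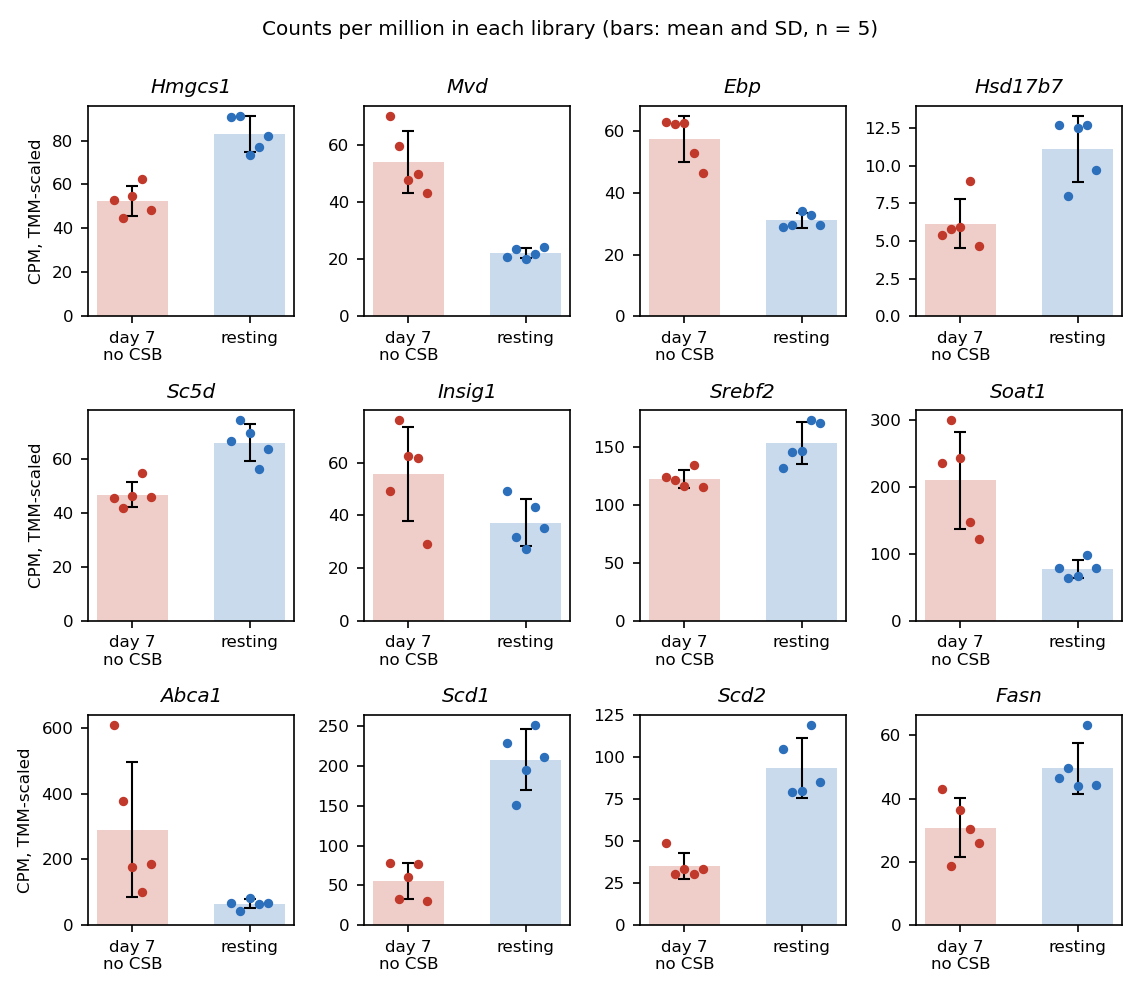
CPM (y axis, TMM-scaled, from 0) of 12 of the genes in each library, day 7 without CSB in red and resting lung in blue, with bars for the mean and whiskers for the SD (n = 5 a group). Mvd, Ebp, Soat1 and Abca1 lie higher at day 7 without overlap, Hmgcs1, Sc5d, Scd1, Scd2 and Fasn lower without overlap, and Hsd17b7, Insig1 and Srebf2 overlap.

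Among the sensing genes, 1 of 5 fell and 0 rose, against 23.4% and 23.3% of all genes. Srebf2 (chr15:82147181-82205379), which encodes the SREBP that mainly drives sterol synthesis, had 123.9, 121.0, 115.8, 133.8 and 115.1 CPM at day 7, against 131.3, 145.6, 145.9, 172.7 and 170.6 CPM in resting lung. The groups overlapped between 131.3 and 133.8 CPM, and it fell by 0.33 ± 0.11 (adjusted p = 0.0206). Of 20 alternative fits 6 ended that call: the adjusted p was 0.238 without the filter on low counts, 0.0538 with a replicate block, 0.0678 without day 7 libraries 1 and 2, and 0.0588, 0.0564 and 0.0638 without day 7 library 3, resting library 4 or resting library 5. Insig1, which retains Scap and is itself induced by SREBP, had 49.1, 76.05, 62.3, 61.9 and 29.0 CPM at day 7, against 49.1, 31.6, 27.3, 43.1 and 35.05 CPM in resting lung. It did not pass (0.58 ± 0.23 on the log2 scale, adjusted p = 0.0557), and its spread at day 7 was 2.62-fold from lowest to highest. Without day 7 library 5 it passed (0.76, adjusted p = 0.00267), as it did without resting library 1 (0.70, adjusted p = 0.0348) and, with all libraries, without the filter on low counts (0.70, adjusted p = 2.41e-05).

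Insig2, the second Insig, averaged 20.9 ± 2.89 CPM at day 7 and 20.8 ± 4.32 CPM in resting lung, and its difference of 0.02 changed sign under several scalings, with -0.18 under library totals alone. Scap averaged 51.7 ± 8.29 CPM at day 7 and 61.2 ± 8.47 CPM in resting lung (-0.24 ± 0.13, adjusted p = 0.151). Srebf1, whose product mainly drives fatty acid synthesis, averaged 37.1 ± 5.90 CPM at day 7 and 33.5 ± 6.44 CPM in resting lung, and its 0.15 became -0.05 with library totals alone. Srebf1 and Srebf2 were not shown to differ from each other in response, since that difference was not tested. Cleavage of the SREBP proteins is not measured by RNA.

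In transport, storage and uptake, Soat1 (chr1:156424525-156474331) stood out. It encodes the acyltransferase that esterifies cholesterol for storage in lipid droplets, the main such enzyme of macrophages. Its level was 236.3, 299.96, 242.8, 147.9 and 122.7 CPM at day 7, against 79.0, 64.4, 67.4, 97.5 and 79.5 CPM in resting lung. The lowest day 7 library lay above the highest resting library, and the log2 fold change was 1.44 ± 0.22 (adjusted p = 0.00016), or 1.16 without day 7 libraries 1 and 2. Stard4, which carries cholesterol between membranes, had 13.0, 15.5, 18.8, 20.2 and 20.3 CPM at day 7, against 28.4, 27.5, 19.8, 22.7 and 27.1 CPM in resting lung. It fell by 0.52 ± 0.16 (adjusted p = 0.0144), with day 7 libraries 4 and 5 above resting library 3, and the call ended without day 7 libraries 1 and 2 (adjusted p = 0.0968) and without the filter on low counts (adjusted p = 0.0574). Mylip, the ubiquitin ligase that degrades lipoprotein receptors and an LXR target, averaged 69.3 ± 12.5 CPM at day 7 and 58.3 ± 10.6 CPM in resting lung (0.25 ± 0.15, adjusted p = 0.204).

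Of the 5 LXR, oxysterol and efflux genes, 3 rose and 0 fell, against 23.3% and 23.4% of all genes. With 5 genes, these counts are a description only. Abca1 (chr4:53030787-53159895), the pump that hands cholesterol and phospholipid to lipid-poor apolipoprotein, had 609.8, 376.1, 176.2, 99.98 and 186.4 CPM at day 7, against 67.3, 44.1, 82.1, 65.0 and 65.5 CPM in resting lung. It rose the most of the 34 genes, by 2.16 ± 0.41 (adjusted p = 0.000759), without overlap. Its values spanned 6.10-fold among the day 7 pools and 1.86-fold among the resting pools. Without day 7 libraries 1 and 2 the log2 fold change was 1.27 (adjusted p = 0.000281), so these pools carry much of the mean. Abcg1, the related pump that exports cholesterol to mature lipoprotein particles, did not pass, with 108.1, 106.2, 104.7, 69.8 and 63.1 CPM at day 7, against 99.1, 70.5, 77.4, 88.3 and 83.1 CPM in resting lung. Its log2 fold change of 0.11 ± 0.16 (adjusted p = 0.615) became -0.09 with library totals alone and -0.06 without day 7 libraries 1 and 2.

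The genes of both receptors rose. Nr1h2 (chr7:44549616-44553951), the broadly expressed LXR beta, had 118.0, 113.4, 86.9, 80.4 and 92.9 CPM at day 7, against 72.2, 75.4, 76.4, 79.9 and 72.2 CPM in resting lung. The log2 fold change was 0.39 ± 0.12 (adjusted p = 0.0161), with the groups separated by less than 1 CPM, and the call ended with library totals alone (adjusted p = 0.169) and without day 7 libraries 1 and 2 (adjusted p = 0.107). Nr1h3 (chr2:91184061-91202834), the LXR alpha of macrophages and liver, had 19.6, 40.0, 46.5, 17.1 and 19.99 CPM at day 7, against 17.1, 15.8, 17.7, 22.3 and 11.7 CPM in resting lung. Only day 7 libraries 2 and 3 lay above the whole resting range, and its 0.77 ± 0.29 (adjusted p = 0.0426) lost the call in 12 of 20 alternative fits, with an adjusted p of 0.0834 without day 7 library 2 and 0.113 without day 7 library 3. Ch25h, which makes an oxysterol that restrains SREBP and is induced by interferon in macrophages, averaged 11.9 ± 3.00 CPM at day 7 and 15.1 ± 3.34 CPM in resting lung (-0.34 ± 0.21, adjusted p = 0.211).

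The day 7 pools differed most in this group. The summed level of the 5 genes was 868.3, 643.1, 428.7, 281.8 and 372.7 CPM in the day 7 libraries, against 273.8, 215.8, 267.7, 270.5 and 250.5 CPM in the resting libraries. From high to low, Abca1 placed the day 7 libraries in the order 1, 2, 5, 3, 4, Soat1 in the order 2, 3, 1, 4, 5, and Abcg1 in the order 1, 2, 3, 4, 5. The eosinophil marker sum was 775, 911.5, 1421, 2178 and 2959 CPM in libraries 1 to 5. That is the reverse of the Abcg1 order, but Abcg1 hardly differed among libraries 1 to 3 (108.1, 106.2 and 104.7 CPM). Stard4 followed the order of the sum. These matches were picked from the orders of all 34 genes, and no association was tested. The monocyte and interstitial macrophage sum was 13770, 19900, 17260, 14910 and 11730 CPM in libraries 1 to 5. Most of it was Lyz2, which gave the same order of libraries. C1qb had 695.9, 1415, 832.1, 339.2 and 522.5 CPM, the order 2, 3, 1, 5, 4, which C1qa and C1qc shared. The markers of this list thus did not give 1 order. The highest Abca1, Soat1 and Abcg1 values thus lay in the pools with the lowest eosinophil marker sums. Alox15 and Ccr3 held much of that sum, with 292 to 1518 and 171 to 811 CPM at day 7. Siglecf ordered the libraries otherwise, with 271.9, 134.3, 165.3, 237.3 and 300.1 CPM in libraries 1 to 5. The neutrophil marker sum was 9651, 4747, 6524, 8323 and 8588 CPM in the same libraries. Its markers did not give 1 order either. Retnlg had 1385, 2790, 3336, 6805 and 7127 CPM in libraries 1 to 5, and S100a8 had 3116, 692, 994, 434 and 430 CPM. S100a9, Cxcr2, Mmp9, Ltf, Csf3r and Stfa2l1 were also highest in library 1, where Abca1 was highest. Ly6g, Mmp8, Camp and Ngp were highest in library 3. The part of cell composition in these values was not tested.

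**Figure D3:**
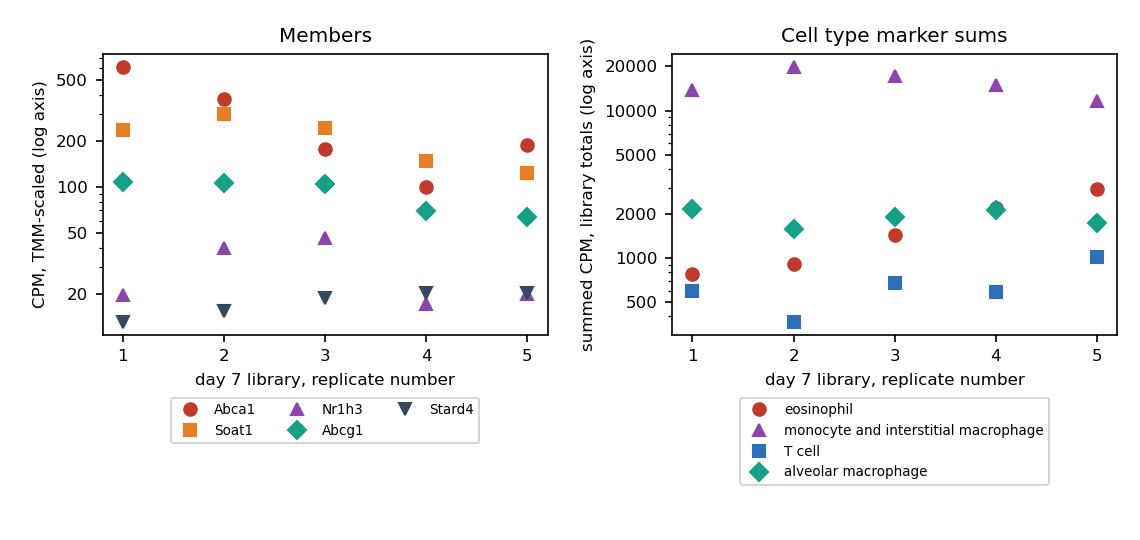
Left, CPM (log axis, TMM-scaled) of Abca1, Soat1, Abcg1, Nr1h3 and Stard4 in each of the 5 day 7 libraries without CSB. Right, summed CPM (log axis, scaled to library totals) of the eosinophil, monocyte and interstitial macrophage, T cell and alveolar macrophage markers in the same libraries. Abca1 runs from 99.98 to 609.8 CPM and the eosinophil sum from 775 to 2959 CPM, with Abca1 highest where that sum is lowest.

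Of the 4 fatty acid genes, 3 fell and 0 rose, against 23.4% of all genes that fell and 23.3% that rose. With 4 genes, these counts are a description only. Scd1 (chr19:44394455-44407879), the desaturase that makes oleate, a preferred partner of cholesterol in its esters, had 77.5, 32.5, 60.0, 76.4 and 30.8 CPM at day 7, against 229.0, 150.4, 195.7, 252.2 and 211.5 CPM in resting lung. It fell by 1.91 ± 0.27 (adjusted p = 6.81e-05). Its paralog Scd2 (chr19:44293674-44306864) had 48.8, 30.7, 33.4, 30.5 and 33.1 CPM at day 7, against 104.6, 79.4, 79.6, 119.4 and 85.4 CPM in resting lung, and fell by 1.41 ± 0.16 (adjusted p = 9.01e-06). The groups lay far apart for both desaturases, whose reads could be split between them where the sequences match. Fasn (chr11:120805846-120824547), the fatty acid synthase, had 42.9, 18.6, 36.4, 30.3 and 26.0 CPM at day 7, against 46.4, 49.7, 43.9, 63.4 and 44.5 CPM in resting lung, and fell by 0.68 ± 0.20 (adjusted p = 0.0112), with its highest day 7 library just below its lowest resting library. Acaca, the cytosolic acetyl-CoA carboxylase that feeds Fasn, averaged 16.1 ± 2.02 CPM at day 7 and 13.1 ± 0.99 CPM in resting lung and did not pass (0.30 ± 0.13, adjusted p = 0.0795).

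The falls of Scd1, Scd2 and Fasn held in all 20 alternative fits. The epithelial marker sum was also lower at day 7, and averaged 576.6 ± 171 CPM at day 7 and 5140 ± 1278 CPM in resting lung (exact two-sided permutation p = 0.00794, the smallest that 5 against 5 can give, and adjusted p = 0.0115 over 13 values). Sftpc, the surfactant protein of alveolar type 2 cells, averaged 139 ± 89.0 CPM at day 7 and 1821 ± 493 CPM in resting lung. Napsa, of the same list, did not pass, with 263.4 CPM at day 7 and 268.1 CPM in resting lung. The endothelial sum averaged 133.2 ± 38.6 CPM at day 7 and 3252 ± 519.6 CPM in resting lung. Other sums were lower at day 7 too. They averaged 412.1 and 1303 CPM for stroma, 127.9 and 2043 CPM for red cells and platelets, 7567 and 11230 CPM for neutrophils, and 630.6 and 936.6 CPM for B cells. Of the 12 neutrophil markers 3 fell, and their sum did not pass on TMM-scaled totals. The eosinophil sum (1649 and 2516 CPM) and the alveolar macrophage sum (1891 and 2127 CPM) were lower but did not pass (permutation adjusted p = 0.122 and 0.215). The monocyte and interstitial macrophage, T cell and dendritic cell sums were higher. The part of these cells in the falls was not tested. From high to low, the day 7 libraries ran 1, 4, 3, 2, 5 for Scd1, 1, 3, 5, 2, 4 for Scd2 and 1, 3, 4, 5, 2 for Fasn, against 3, 1, 4, 5, 2 for the epithelial sum, so the orders differed among the 3 genes.

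Divided by exonic length, the order of the genes differed between the groups. In CPM per kilobase, Scd1 was the highest of the 34 in resting lung (42.5 ± 7.83) and ranked 14 at day 7 (11.3 ± 4.66). Abca1 ranked 3 at day 7 (27.95 ± 19.9) and 19 in resting lung (6.25 ± 1.31), Mvd ranked 2 at day 7 (29.2 ± 5.83) and 11 in resting lung (11.9 ± 0.96), and Soat1 ranked 6 at day 7 (21.4 ± 7.46) and 16 in resting lung (7.92 ± 1.33). Scd2 ranked 19 at day 7 (6.46 ± 1.40) and 7 in resting lung (17.1 ± 3.24). Nr1h2 led at day 7 (29.3 ± 4.93) and was the second in resting lung (22.4 ± 0.96). Lss, Acaca and Hsd17b7 were the lowest at day 7, with 0.65 ± 0.18, 0.94 ± 0.12 and 1.21 ± 0.32. Of 33 pairs of neighbours in the order, 2 lay apart by more than their summed SDs at day 7 (Srebf2 above Cyp51, and Dhcr7 above Hsd17b7) and 2 in resting lung (Scd1 above Nr1h2, and Dhcr7 above Lss). The other neighbours did not differ beyond their spread. Levels and ranks depend on the length used: over the longest transcript in place of all exons, Nr1h2 had 49.2 ± 8.27 at day 7 and 37.6 ± 1.61 in resting lung, and kept its ranks. Mvd then ranked 4 at day 7 and 15 in resting lung, Abca1 5 and 21, and Scd1 16 and 1 in the same order, and 9 of the 10 highest genes at day 7 and 8 of 10 in resting lung were shared with the order over all exons.

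**Figure D4:**
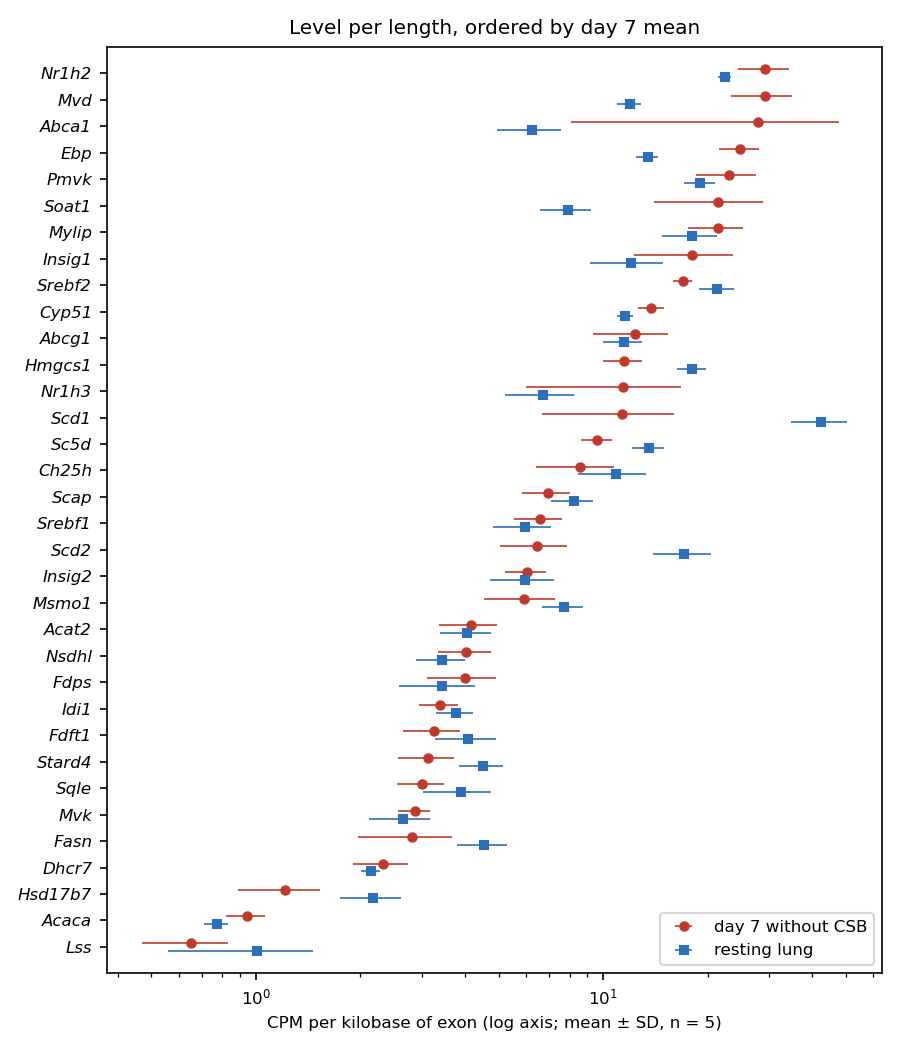
CPM per kilobase of exon (log axis) of the 34 genes, ordered by their day 7 mean, as mean ± SD over 5 libraries, day 7 without CSB in red and resting lung in blue. Scd1 leads in resting lung at 42.5 and lies in the middle at day 7 at 11.3, while Abca1, Mvd and Soat1 lie further right at day 7.

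Further genes of the same processes were read from 6 lists of 86 genes, of which 81 were tested, 30 rose and 20 fell (61.7%, against 46.7% of all genes). The lists were chosen with earlier results of these data known, so the higher share is a description only. The part of cell composition in these changes was not tested. The lysosomal egress and sterol transfer list had 10 of 15 higher and 2 lower, with a median log2 fold change of 0.53. Npc2, which lifts cholesterol out of lysosomal vesicles, averaged 384.7 ± 128 CPM at day 7 and 147 ± 9.17 CPM in resting lung (1.39, adjusted p = 4.35e-05), and Lamp1, a lysosomal membrane protein, averaged 792 ± 72.8 CPM at day 7 and 289 ± 56.2 CPM in resting lung (1.45, adjusted p = 2.46e-06). Lamp2 rose by 1.04, and Osbpl2, an oxysterol-binding relative, fell by 0.81. The SREBP processing list had 8 of 14 higher and 2 lower. Its members include Erlin1 (85.3 ± 28.7 CPM at day 7 and 44.5 ± 5.47 CPM in resting lung, 0.94) and Rnf139 (60.0 ± 9.29 CPM at day 7 and 40.3 ± 4.75 CPM in resting lung, 0.57), which serve degradation of sterol-regulated proteins, while Mbtps1, the first SREBP protease, fell by 0.50.

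The isoprenoid branch had 4 of 14 higher and 3 lower, with Coq2 of ubiquinone synthesis and Nus1 of dolichol synthesis each higher by 0.78, and Pggt1b, a prenyltransferase subunit, lower by 0.50, a call that 1 of 20 alternative fits ended (adjusted p = 0.0561). In the lipoprotein and cholesterol ester list, 4 of 14 rose and 4 fell. Msr1, a scavenger receptor of macrophages, averaged 239 ± 84.96 CPM at day 7 and 30.0 ± 8.25 CPM in resting lung (3.00, adjusted p = 1.33e-06), and Lrp8, a lipoprotein receptor, 10.4 ± 1.52 CPM at day 7 and 3.35 ± 0.81 CPM in resting lung (1.63). Cd36, a fatty acid and lipoprotein receptor also of endothelium, averaged 137 ± 46.5 CPM at day 7 and 696 ± 81.9 CPM in resting lung (-2.34), and Vldlr 0.46 ± 0.27 CPM at day 7 and 10.1 ± 3.30 CPM in resting lung (-4.37). Uptake genes thus moved in opposite directions.

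Of 10 tested LXR partners and targets, 2 rose and 2 fell. Rxra and Rxrb, which pair with LXR on DNA, fell by 0.76 and 0.54, but the groups of Rxra overlapped (11.9 to 40.19 CPM at day 7 and 40.16 to 58.5 CPM in resting lung) and its call ended in 3 of 20 alternative fits (adjusted p of up to 0.065). The coregulators Nrip1 and Ncoa1 rose by 0.96 and 0.76. The other fatty acid genes had 2 of 14 higher and 7 lower, with a median of -0.35. Fads1 and Fads2, desaturases of polyunsaturated fatty acids, averaged 18.3 ± 4.75 and 1.51 ± 0.65 CPM at day 7, against 51.9 ± 6.68 and 11.9 ± 1.5 CPM in resting lung (-1.51 and -2.97). Acacb fell by 2.94 and Me1, which supplies NADPH, by 2.45.

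**Figure D5:**
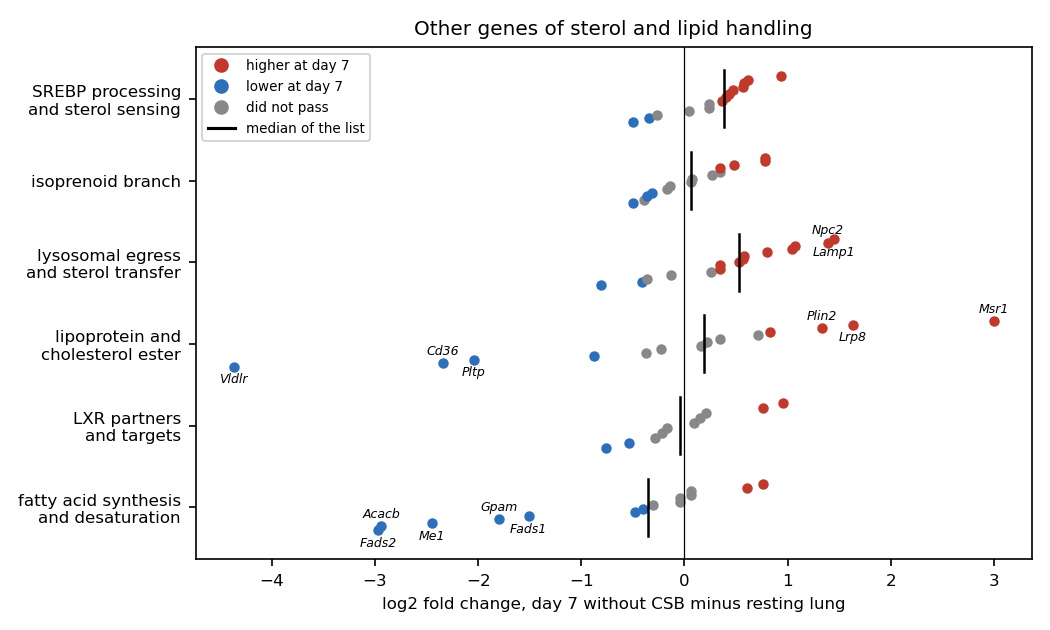
Log2 fold change (x axis, day 7 without CSB minus resting lung) of the 81 tested genes of the 6 further lists, in red where they rose, in blue where they fell and in grey where they did not pass, with a black line at the median of each list. Names are given for genes beyond 1.3 in size, and the lysosomal list has the highest median, 0.53.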

How the data were processed

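RNA sequencing counts of sorted lung eosinophils were analysed for day 7 grafts without CSB (n = 5) and resting lung (n = 5). The authors deposited raw counts per gene in 2 tables that hold the same 49315 identifiers. Per the submitters' processing notes, the build was mm10 and the tools were STAR 2.5.2b, Subread 1.5.2, featureCounts, Trimmomatic 0.36 and bcl2fastq 2.17. The sources used here do not give their settings, the annotation release or the strand setting. Genes that overlap on the same or the opposite strand, and near-identical paralogs, are therefore uncertain. Columns were tied to samples by name. A further 10 columns with bare numbers were not used, and the 2 groups with CSB were not analysed here. The labels list 20 samples in 4 groups.

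From these counts, filterByExpr kept 16500 genes and dropped 32815. Tests were run in edgeR 4.0.16 under R 4.3.3 (TMM, robust quasi-likelihood F test, group as the only term, Benjamini-Hochberg adjustment, threshold 0.05). The procedure was also run on simulated counts in which few genes were changed, evenly up and down. In these data 46.7% of genes passed, so that run cannot test the scaling used here. Standard errors are the absolute log2 fold change over the root of F. The lowest detectable level, taken as 3 counts, was 0.112 to 0.191 CPM at day 7 and 0.233 to 0.450 CPM in resting lung, for counting error only. Each of the 34 genes had at least 50 counts in every library. Replicates differed by more than sampling noise in every pair (chi-square per degree of freedom at least 6.57). Marker sums used library totals and exact permutation tests in scipy 1.17.1, adjusted over 13 values. Symbols, gene spans and exonic lengths (all annotated exons merged) came from GENCODE M21 on mm10, and promoters from RefSeq.

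The alternatives were DESeq2 1.42.0, limma-voom (limma 3.58.1), other scalings and filters, a fit without robust dispersion, a replicate block and each library left out. The 34 genes and the lists were chosen with earlier results of these data known. Named were all 34 genes and, of each further list, up to 4 called genes with the smallest adjusted p. Ctsb and the cell type markers given singly, such as Siglecf, Ccr3, C1qb and Sftpc, were named after their values were seen.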

Additional observations from a re-analysis of the deposited data

Results flagged for a closer look

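A library far from the other 4 of its group, by Dixon's criterion, was looked for in 92 groups of values, and 5 were found. Chance flags about 1 in 20 groups. Hsd17b7 was highest at 8.96 CPM in day 7 library 4, the library that makes its groups overlap. Scd2 was highest at 48.75 CPM in day 7 library 1, still below every resting library. The dendritic cell marker sum was highest at 311.5 CPM in day 7 library 5. Pmvk was lowest at 26.71 CPM in resting library 1, and Insig2 was highest at 28.30 CPM in the same library.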

How the results depend on the processing

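Of the 340 comparisons of the 34 genes with fits over other settings, 300 kept direction and call, and of the 340 that left out 1 library, 314 did. With library totals alone, all genes gave 2495 higher, the 34 genes 4 higher and 13 lower, and the further lists 16 higher, against 3843, 7, 8 and 30. Without the filter on low counts, 6715 genes fell, against 3859. Without day 7 libraries 1 and 2, an alternative chosen after seeing the data because their eosinophil sums were lowest, 4 of the 34 rose and 6 fell. Leaving out 1 library gave 5 to 8 higher and 7 to 8 lower among the 34, 26 to 34 and 16 to 22 in the further lists, and 3507 to 3976 and 3669 to 4020 over all genes. The sign turned for Acat2 (-0.16 with library totals, -0.02 with upper quartile factors, and -0.05 to 0.15 leaving out 1 library), Mvk (-0.08), Dhcr7 (-0.07) and Srebf1 (-0.05) with library totals, Abcg1 (-0.09 with library totals, -0.06 without day 7 libraries 1 and 2) and Insig2 (-0.18 with library totals, -0.04 with upper quartile factors, -0.01 with RLE factors and with DESeq2, -0.07 without day 7 libraries 1 and 2, and -0.03 to 0.16 leaving out 1 library). None of these genes passed in any fit. Marker sums on TMM-scaled totals gave an alveolar macrophage difference of 31.93 CPM, against -236.3, a neutrophil difference of -2489 CPM (adjusted p = 0.0657), against -3667, and a dendritic cell difference of 63.12 CPM (adjusted p = 0.0115), against 30.89. The cause was not tested.

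The replicate numbers do not pair the samples: same-numbered deviations correlated at 0.12, 0, -0.114, -0.188 and 0.089. A fit with a replicate block gave 3317 higher and 3636 lower genes, and 5 and 7 among the 34. Pools of several mice with 5 libraries a group, separate tables for the groups and resting libraries of lower depth limit what these values can show. Cyp51, Nr1h3, Srebf2, Nr1h2 and Stard4 lost their calls under some settings, and Insig1, Pmvk, Fdft1, Sqle, Lss, Msmo1, Scap and Mylip passed under some.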

Other observations

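Alongside the genes above, T cell markers were higher in the same day 7 libraries, with 12 of 12 that rose, against 23.3% of all genes. Their sum averaged 646 ± 234 CPM at day 7 and 146 ± 26.1 CPM in resting lung. Spp1, which encodes osteopontin, averaged 501 ± 134 CPM at day 7 and 82.6 ± 12.7 CPM in resting lung. The 12 alveolar macrophage markers were divided, with 3 higher and 6 lower, among them Fabp1, a lipid-binding protein, at 0.15 ± 0.09 CPM at day 7 and 10.4 ± 1.75 CPM in resting lung, and Cidec, a lipid droplet protein, at 0.44 ± 0.30 CPM at day 7 and 15.6 ± 2.54 CPM in resting lung. Plin2, which coats lipid droplets, averaged 693 CPM at day 7 and 276 CPM in resting lung (log2 fold change 1.33, edgeR adjusted p = 0.00144), and Pltp, a phospholipid transfer protein, 91.4 CPM at day 7 and 375 CPM in resting lung (-2.04). These genes were named after their values were seen. The 13 mitochondrially encoded genes took 0.801 ± 0.298% of counts at day 7 and 1.97 ± 0.424% in resting lung.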
